A study of Mus musculus with 12 samples.

Results

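The Cyp2 genes encode the largest family of cytochrome P450 enzymes in mouse liver, and their transcripts are described here in 3 groups of livers. The members are the genes whose symbol starts with Cyp2, a subfamily letter and a number, 47 of the 25164 genes listed, and no measured value entered that choice. They fall into 12 subfamilies: 16 Cyp2c, 10 Cyp2d, 5 Cyp2a, 5 Cyp2j and 4 Cyp2b genes, and 1 gene each of Cyp2e, Cyp2f, Cyp2g, Cyp2r, Cyp2s, Cyp2t and Cyp2u. The deposited annotation gives 43 of them as protein-coding and 4 as pseudogenes. Gene positions are those of the deposited tables, and 37 of the 47 equal those of the GENCODE M21 annotation of the mouse genome GRCm38.

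RNA was sequenced from the livers of mice in 3 groups, with 4 libraries per group and 10 mice assigned to each group. The Control group was kept on a normal diet and the HFD group on a high-fat diet, both over 14 weeks. The fenofibrate group had the same high-fat diet for the same time and was given fenofibrate, an agonist of the receptor PPARalpha used to lower blood lipids, by gavage in the final 4 weeks, the first 10 having been diet only. Whether the Control and HFD mice had a gavage without the drug is not stated here, and the part of gavage itself was not tested. The labels used here give no strain, sex or age, and do not say which mice shared a cage or a litter, so p-values reflect only the spread among these libraries, which may be technical in part.

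Cytochrome P450 enzymes of this family sit in the endoplasmic reticulum and put an oxygen atom into drugs, environmental chemicals, steroids, bile acids and fatty acids, with electrons passed to them by the reductase Por. The nuclear receptors CAR and PXR switch on several of them when foreign compounds enter the liver, and the rhythm of growth hormone release makes others higher in one sex. Within the lobule, Cyp2e1 and several Cyp2c genes are known as pericentral and Cyp2f2 as periportal.

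Between 15797016 and 18514481 reads were assigned to genes in each library. Levels below are counts normalised between libraries by the trimmed mean of M-values (TMM-scaled CPM, here CPM), and levels of different genes are compared only after division by exon length in kb. Of the 47 genes, 36 had enough reads to be tested among 13477 genes. Cyp2a4 had enough only with the fenofibrate libraries counted, and Cyp2b9 only with those of HFD or fenofibrate. A gene is said to have risen or fallen where edgeR's quasi-likelihood test gave a Benjamini-Hochberg adjusted p under 0.05 over all 13477. Transcripts of other tissues stood out in some fenofibrate libraries, given here in CPM of unscaled library totals: the sum over 12 markers of pancreatic acini was 2187 CPM in fenofibrate library 1 and at most 31.1 in the other 11, and the sum over 6 markers of striated muscle was 198 and 160.4 CPM in fenofibrate libraries 1 and 3 and at most 0.906 in the other 10. Over 5 erythroid markers, fenofibrate library 1 stood at 1185 CPM and the others at 202 to 484, and none of the 4 kidney markers was listed. For 12 hepatocyte markers the sum ranged from 141881 to 152118 CPM over the Control libraries, from 127010.4 to 140470.1 over HFD and from 120121 to 141979.9 over fenofibrate. Their part in the results was not tested. Values without fenofibrate libraries 1 and 3 stand beside the results of Cyp2 genes they change, and were not examined for single genes outside the family.

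The family as a whole held a similar share of all counts in the 3 groups while its makeup differed. All 47 genes together took 2.33% ± 0.228 of counts in Control (SD, n = 4), 2.2% ± 0.219 in HFD and 2.35% ± 0.0612 with fenofibrate, and the groups overlapped. After TMM scaling the summed level was 24661 ± 1586 CPM in Control, 22567 ± 1198 in HFD and 21585 ± 1227 with fenofibrate. Cyp2e1, which oxidises ethanol, acetaminophen and ketone bodies, was the most abundant member per kb in every group, at 4023 CPM per kb in Control, 3922 in HFD and 5009.9 with fenofibrate. Its share of the summed Cyp2 level per kb was 39.8, 39.4, 32.1 and 37.5% in the Control libraries, 39.1, 42.2, 38 and 41.2% in HFD, and 55.4, 49.9, 50.8 and 51.1% with fenofibrate. Every fenofibrate library thus lay above all 8 others. The share of the 16 Cyp2c genes was 31.6% ± 3.08 in Control, 30.9% ± 1.86 in HFD and 19.9% ± 2.15 with fenofibrate, where all 4 libraries lay below the other 8. The level of Cyp2e1 per kb was 1.19 ± 0.218 times that of all Cyp2c genes together in Control, 1.31 ± 0.142 times in HFD and 2.63 ± 0.427 times with fenofibrate. In bulk liver, fewer cells of a type and less RNA per cell cannot be told apart.

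**Figure D1:**
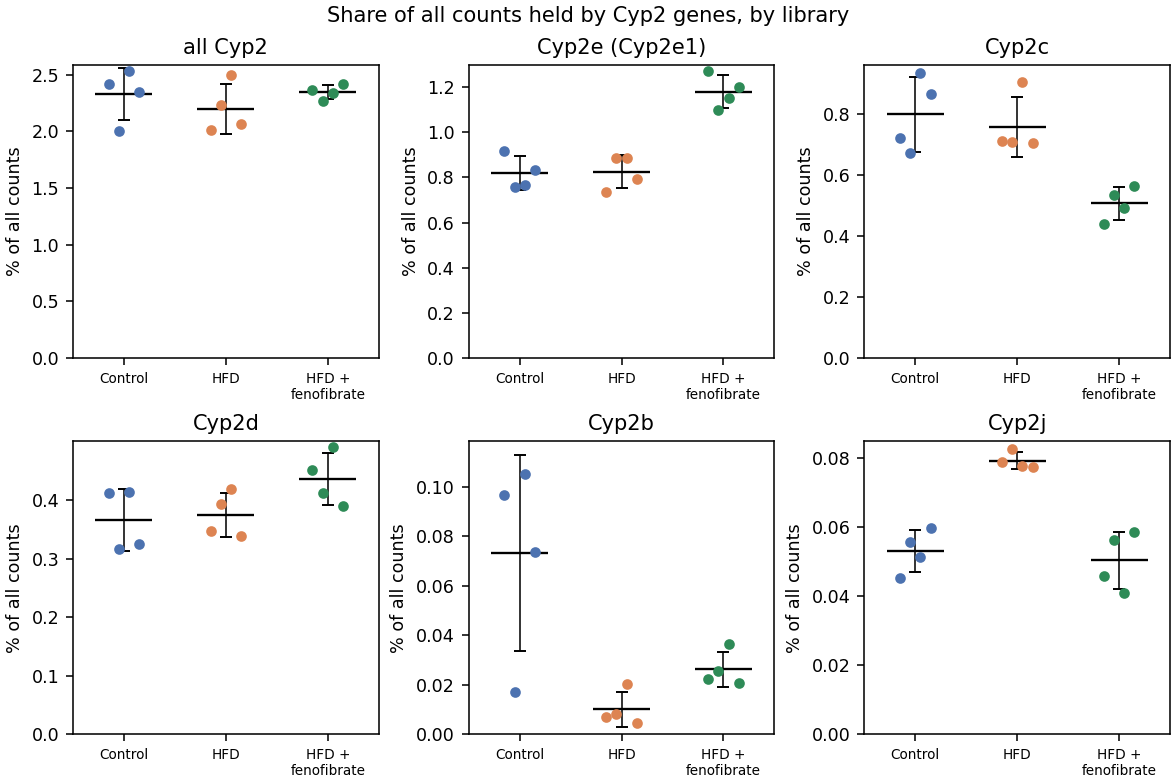
Share of all counts (%) held by all Cyp2 genes and by the Cyp2e, Cyp2c, Cyp2d, Cyp2b and Cyp2j subfamilies in each library, with the 3 groups on the x axis, points for libraries, horizontal lines for group means and bars for SD. The 3 groups overlap for the whole family, whereas for Cyp2e1 the 4 fenofibrate libraries (1.1 to 1.27%) lie above the 8 others and for Cyp2c (0.439 to 0.566%) below them.

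Among single genes the order of levels per kb differed between the groups. After Cyp2e1, the Control order was Cyp2c29 (1215 CPM per kb), Cyp2c50 (594), Cyp2d9 (593), Cyp2d26 (574) and Cyp2d10 (522), and Cyp2c50, Cyp2d9 and Cyp2d26 differed from one another by less than the SD between Control libraries of Cyp2c50 and Cyp2d9. Exon lengths were taken from GENCODE M21. The deposited positions of Cyp2d9, Cyp2d26 and Cyp2d10 differ from it, so their levels per kb are less certain. Cyp2b10, the best-known target of CAR, was in place 10 in Control (362 CPM per kb), place 19 in HFD (41.8) and place 18 with fenofibrate (64.6). At the other end, Cyp2b9 had the lowest mean per kb of the 36 tested genes in Control, at 0.106 CPM per kb.

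**Figure D2:**
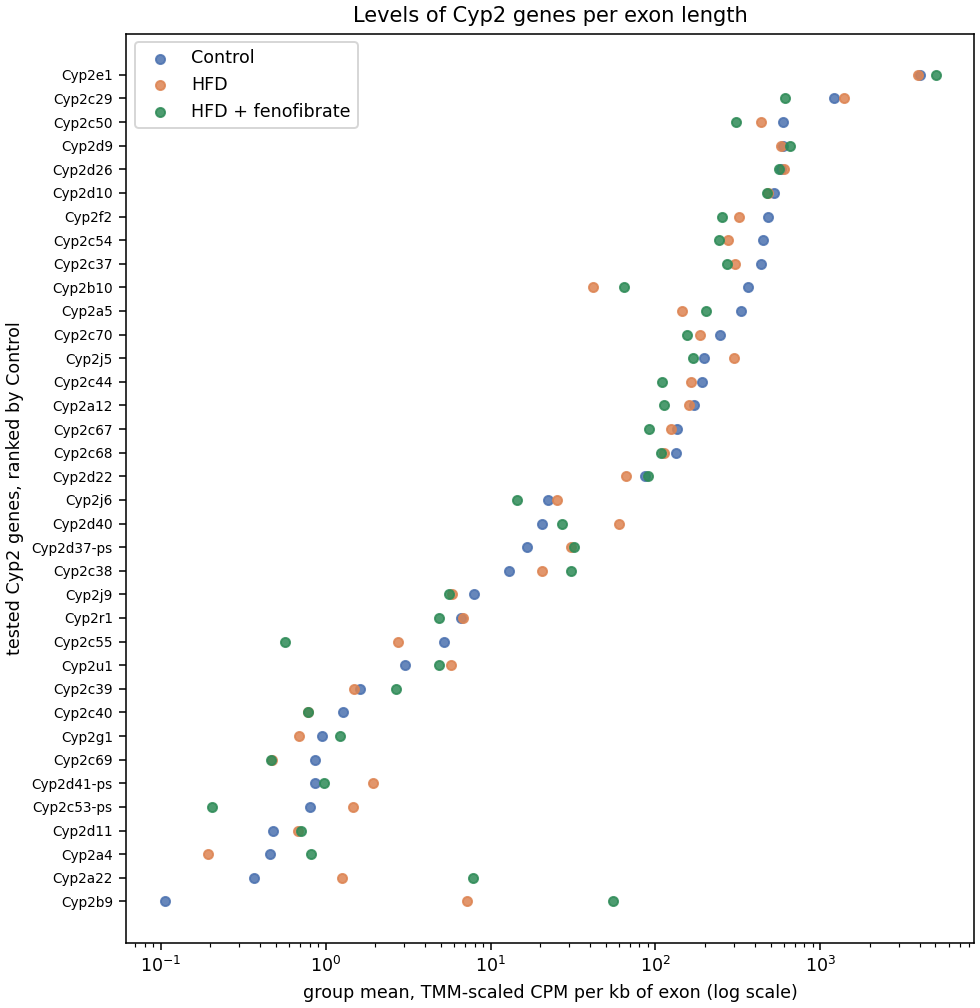
Group means of the 36 tested Cyp2 genes in CPM per kb of exon on a log scale (x axis), ranked by the Control mean (y axis), with 1 point per group. Cyp2e1 leads in all 3 groups, Cyp2b10 is far to the left of its Control level in HFD and with fenofibrate, and Cyp2b9 and Cyp2a22 at the foot of the ranking are far to the right of theirs.

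On the high-fat diet, 7 of the 36 tested genes rose and 7 fell, which is 19.4% in each direction, where 6.13% of all genes tested rose and 6.64% fell. The median log2 change of the 36 was -0.12, against -0.02 for all genes. With fenofibrate on top of the diet, 6 rose and 10 fell relative to HFD, or 16.7% and 27.8%, where 6.89% of all genes rose and 6.59% fell, and the median was -0.08 against 0.01. Relative to Control, the fenofibrate livers had 5 genes that rose and 11 that fell, or 13.9% and 30.6%, where 4.86% of all genes rose and 4.31% fell, with a median of -0.38 against -0.01. The 3 comparisons share libraries, so their values are given side by side and not as separate support for one another. Without fenofibrate libraries 1 and 3 the counts were 1 risen and 3 fallen relative to HFD and 4 risen and 6 fallen relative to Control. Over all 13811 genes tested at that setting, 55 rose and 69 fell relative to HFD, and 215 rose and 158 fell relative to Control. Without HFD library 4 the diet count of fallen Cyp2 genes was 4, and without fenofibrate library 1 the count of those fallen relative to HFD was 6. Over all genes tested at those settings, 562 of 13686 and 434 of 13622 fell, against 895 and 888 of 13477 in the main fit.

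**Figure D3:**
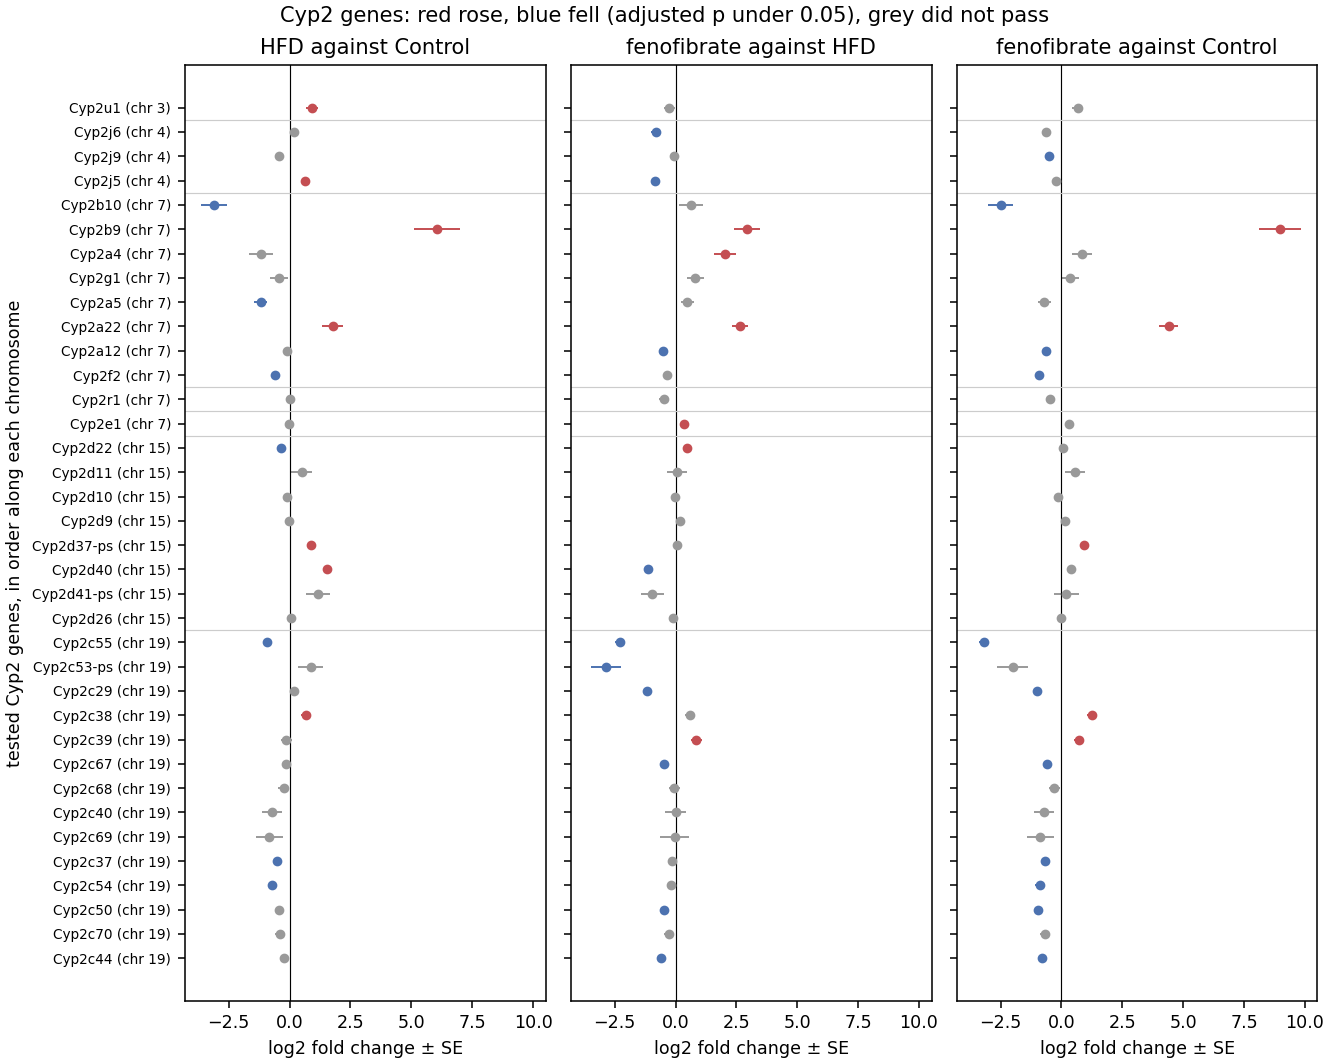
Log2 fold changes with their SE (x axis, same scale in the 3 panels) of the 36 tested Cyp2 genes in chromosome order (y axis), for HFD against Control, fenofibrate against HFD and fenofibrate against Control. Red points rose and blue points fell at an adjusted p under 0.05, and Cyp2b9 reaches 6.05, 2.93 and 8.97 in the 3 panels while Cyp2c genes on chromosome 19 fall in most cases where they pass.

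The Cyp2b genes lie side by side on chromosome 7, in a cluster of 13 Cyp2 genes from chr7:25802475-27158668, and 2 of them moved in opposite directions on the diet. Cyp2b10 is inducible through CAR, whereas Cyp2b9 and Cyp2b13 are known as female-biased genes of mouse liver. The stretches just upstream of their RefSeq starts (GRCm38.p6) are shown because the closest of them belonged to genes with very different read counts. Each is 210 bases, 5′ to 3′, and ends 41 bases before the start. Capitals mark the nuclear receptor half-site AGGTCA in Cyp2b9 and Cyp2b13 and, in Cyp2b10, the 2 bases that a global alignment placed against it.
Cyp2b9, chr7:26173159-26173368 (plus strand): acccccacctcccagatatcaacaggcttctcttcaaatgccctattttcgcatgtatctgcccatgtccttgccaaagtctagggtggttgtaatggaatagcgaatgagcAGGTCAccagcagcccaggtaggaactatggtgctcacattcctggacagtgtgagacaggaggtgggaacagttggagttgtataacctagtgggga
Cyp2b13, chr7:26061245-26061454 (plus strand): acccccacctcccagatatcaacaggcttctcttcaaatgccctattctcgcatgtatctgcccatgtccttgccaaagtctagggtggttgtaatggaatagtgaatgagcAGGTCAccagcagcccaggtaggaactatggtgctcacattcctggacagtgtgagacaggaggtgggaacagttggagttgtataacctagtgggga
Cyp2b10, chr7:25897408-25897617 (plus strand): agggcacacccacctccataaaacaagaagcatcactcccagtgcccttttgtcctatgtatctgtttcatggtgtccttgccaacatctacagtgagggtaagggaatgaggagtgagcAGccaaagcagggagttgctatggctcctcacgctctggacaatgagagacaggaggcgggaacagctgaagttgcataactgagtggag
Over the 250 bases before the start, Cyp2b9 and Cyp2b13 were 99.2% identical and differed at T48C and C104T, counted from 1 at the 5′ end of the Cyp2b9 stretch, and AGGTCA started at base 113 in both. Cyp2b10 was 75.8% identical to each and had no AGGTCA there. AGGTCA, searched on both strands, occurred in 14% of 32851 windows of 250 bases before RefSeq starts and in 8 of 37 windows of Cyp2 genes, those of Cyp2b9, Cyp2b13, Cyp2c29, Cyp2c39, Cyp2c70, Cyp2f2, Cyp2j5 and Cyp2t4. Cyp2c39 has 2 windows in the RefSeq table, and its match lies in the one at chr19:39347096-39347345, far from the deposited gene (chr19:39510862-39568529), while the window beside that gene has none. The RefSeq window of Cyp2c29 lies inside the deposited gene and not at its start. A match describes the letters only.

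Cyp2b10 (ENSMUSG00000030483, chr7:25897620-25926624) was at 971, 195, 1099 and 791 CPM in the Control libraries, 76.6, 75.3, 160.2 and 41.3 in HFD, and 89.5, 194, 203 and 59.3 with fenofibrate. Each HFD library was below each Control library, while Control library 2 lay among the fenofibrate libraries. Cyp2b10 fell 8.65-fold on the diet (log2 change -3.11 ± 0.52, SE, adjusted p = 0.00129) and was 5.6-fold lower with fenofibrate than in Control (-2.49 ± 0.51, adjusted p = 0.00694). Relative to HFD its log2 change with fenofibrate was 0.63 ± 0.49 (adjusted p = 0.403). The call relative to Control was lost when fenofibrate libraries 1 and 3 were left out (-2.59, adjusted p = 0.0627).

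Cyp2b9 (ENSMUSG00000040660, chr7:26173411-26210661) was at 0.112, 0.0648, 0.124 and 0.498 CPM in Control, from 13 reads in all, at 2.43, 7.89, 36.8 and 7.07 CPM in HFD, and at 109.9, 63, 111 and 130.2 CPM with fenofibrate. The 3 groups did not overlap. The diet rise was 66.1-fold (6.05 ± 0.94, adjusted p = 0.000696), and fenofibrate added 7.61-fold (2.93 ± 0.53, adjusted p = 0.00377). The distance of the fenofibrate group from Control was 8.97 ± 0.87 on the log2 scale (adjusted p = 2.96e-05). Single libraries moved these sizes: without HFD library 3 the diet change was 4.83 and the fenofibrate change 4.15, and without Control library 4 the diet change was 6.97 and the distance from Control 9.90. Without fenofibrate libraries 1 and 3, the change relative to HFD was 2.83 (adjusted p = 0.0518).

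Cyp2b13, whose upstream stretch is nearly that of Cyp2b9, stayed too low to be tested. It had 1 read in the 4 Control libraries together, 1, 0, 33 and 2 reads in the HFD libraries, and 7, 5, 3 and 11 with fenofibrate. The library with 33 reads was HFD library 3, the one in which Cyp2b9 was at 36.8 CPM. The pseudogene Cyp2b26-ps had 1, 0 and 1 reads in Control, HFD and fenofibrate. Per kb, Cyp2b9 was 0.000335 ± 0.000275 of Cyp2b10 in Control, 0.151 ± 0.0962 in HFD and 1.21 ± 0.947 with fenofibrate, where it exceeded Cyp2b10 in libraries 1 (1.38) and 4 (2.47) and stayed below it in libraries 2 (0.366) and 3 (0.612). Of the 100-base stretches of its transcript, 1.18% in Cyp2b9, most often in Cyp2b13, and none in Cyp2b10 occurred in another gene. In Cyp2b13 9.29% did, most often in the gene Gm45225. Only exact matches were counted, and how far reads of these genes were mixed up was not tested.

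**Figure D4:**
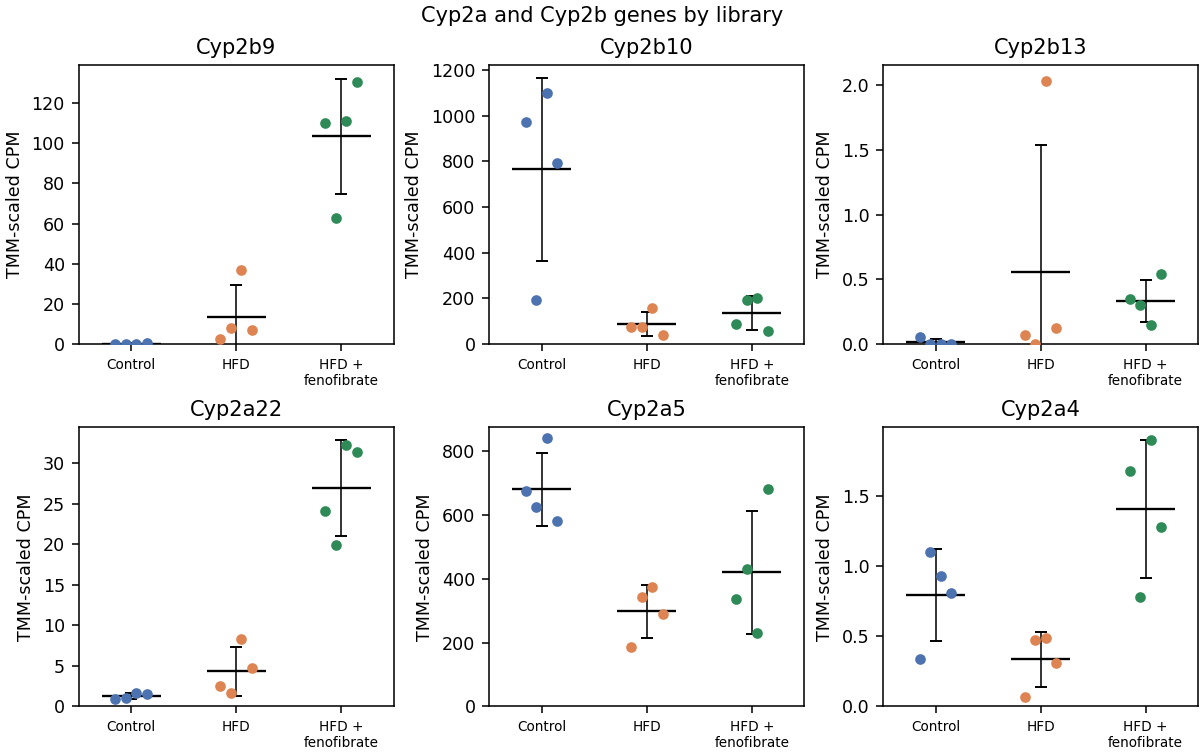
CPM in each library (y axis, from 0) for Cyp2b9, Cyp2b10, Cyp2b13, Cyp2a22, Cyp2a5 and Cyp2a4 in the 3 groups, with points for libraries, lines for means and bars for SD. Cyp2b10 and Cyp2a5 are highest in Control, Cyp2b9 and Cyp2a22 are highest with fenofibrate, and Cyp2b13 is above 1 CPM in a single HFD library.

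The Cyp2a genes form 2 pairs of close copies, and in each pair the calls of the members differed, although the difference between members was not itself tested. Cyp2a5, which hydroxylates coumarin and nicotine, and Cyp2a4, a female-biased steroid hydroxylase, were 98.5% identical over their coding sequence. Cyp2a12, which acts on steroids and bile acids, and Cyp2a22 were 97% identical. The upstream stretches of both pairs are shown, cut in the same way, to set how alike they are beside the values of their genes. Capitals mark the bases that differ within a pair where the alignment places 2 bases against each other.
Cyp2a5, chr7:26835089-26835298 (plus strand): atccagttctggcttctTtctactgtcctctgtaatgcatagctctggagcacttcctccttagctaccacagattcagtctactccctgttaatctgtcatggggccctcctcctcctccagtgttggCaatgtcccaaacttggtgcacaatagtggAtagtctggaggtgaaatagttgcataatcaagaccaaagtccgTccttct
Cyp2a4, chr7:26306942-26307151 (plus strand): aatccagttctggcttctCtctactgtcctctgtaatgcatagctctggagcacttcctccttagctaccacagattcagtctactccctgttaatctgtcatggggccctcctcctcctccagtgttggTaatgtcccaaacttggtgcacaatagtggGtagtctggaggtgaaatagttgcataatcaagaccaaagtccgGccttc
Cyp2a22, chr7:26939427-26939636 (minus strand): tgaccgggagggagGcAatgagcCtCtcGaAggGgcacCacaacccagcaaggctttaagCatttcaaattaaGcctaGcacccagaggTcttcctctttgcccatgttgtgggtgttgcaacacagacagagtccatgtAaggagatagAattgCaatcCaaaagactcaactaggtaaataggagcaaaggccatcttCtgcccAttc
Cyp2a12, chr7:27028840-27029049 (plus strand): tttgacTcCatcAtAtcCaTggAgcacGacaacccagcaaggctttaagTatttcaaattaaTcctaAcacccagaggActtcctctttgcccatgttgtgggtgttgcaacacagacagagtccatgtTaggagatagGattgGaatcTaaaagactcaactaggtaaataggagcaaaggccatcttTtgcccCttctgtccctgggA
Over 250 bases, Cyp2a5 and Cyp2a4 were 98.4% identical, with T18C, C130T, A160G and T204G counted from 1 at the 5′ end of the Cyp2a5 stretch. Cyp2a22 and Cyp2a12 were 91.6% identical over 237 aligned bases, with 20 substitutions, 18 of them within the printed stretch of Cyp2a22.

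Cyp2a5 (ENSMUSG00000005547, chr7:26835305-26843548) was at 676, 627, 843 and 581 CPM in Control, 186, 343, 376 and 291 in HFD, and 337, 432, 229.7 and 682 with fenofibrate. It fell 2.28-fold on the diet, with no overlap between those groups (-1.19 ± 0.27, adjusted p = 0.00978). The fenofibrate libraries spread over both other groups, and neither 0.49 ± 0.27 relative to HFD (adjusted p = 0.229) nor -0.70 ± 0.27 relative to Control (adjusted p = 0.121) passed. Its copy Cyp2a4 was at 0.336, 1.1, 0.933 and 0.809 CPM in Control, 0.0675, 0.471, 0.491 and 0.31 in HFD, and 1.68, 0.78, 1.9 and 1.28 with fenofibrate. Cyp2a4 rose 4.11-fold with fenofibrate (2.04 ± 0.46, adjusted p = 0.0112), and its diet change of -1.19 ± 0.49, the same size as that of Cyp2a5, did not pass (adjusted p = 0.132). Its values rest on 51, 22 and 112 reads in the 3 groups, and 11.2% of the 100-base stretches of its transcript also occurred in another gene, most often Cyp2a5, so its level is uncertain. The HFD libraries held 1, 8, 8 and 5 of its reads, and Cyp2a4 had enough reads to be tested only through the fenofibrate group, where it was high. Its call was lost when fenofibrate libraries 1 and 3 were left out (1.59, adjusted p = 0.193).

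Cyp2a22 (ENSMUSG00000091867, chr7:26931631-26939384) rose at both steps. It was at 0.895, 1.04, 1.62 and 1.49 CPM in Control, 2.5, 1.65, 8.29 and 4.77 in HFD, and 24.1, 19.9, 32.2 and 31.4 with fenofibrate, with no overlap between any groups. The diet rise was 3.42-fold (1.77 ± 0.42, adjusted p = 0.0126), the rise with fenofibrate 6.24-fold (2.64 ± 0.34, adjusted p = 0.000574) and the distance from Control 21.3-fold (4.41 ± 0.39, adjusted p = 1.62e-05). The diet call was lost with limma-voom (1.53, adjusted p = 0.0701). The pseudogene Cyp2a21-ps overlaps Cyp2a22 on the other strand and held 16, 4 and 8 reads in the 3 groups, and whether the counting used strand was not stated in the sources used here.

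Cyp2a12, the close copy of Cyp2a22, fell in the fenofibrate comparisons, where Cyp2a22 rose, and did not pass on the diet. It was at 518, 571, 701 and 594 CPM in Control, 587, 510.2, 601 and 497 in HFD, and 279, 483, 355 and 432 with fenofibrate. It fell 1.42-fold with fenofibrate relative to HFD (-0.50 ± 0.15, adjusted p = 0.0385) and 1.54-fold relative to Control (-0.62 ± 0.15, adjusted p = 0.0176), while the diet change of -0.12 ± 0.15 did not pass (adjusted p = 0.664). The call relative to HFD was lost without any 1 of the 4 HFD libraries, Control library 4, or fenofibrate library 1 or 3 (0.0508 to 0.122, adjusted p), and that relative to Control without Control library 3 or fenofibrate library 1 or 3 (0.0515 to 0.068). With fenofibrate libraries 1 and 3 both removed, the changes were -0.26 (adjusted p = 0.401) and -0.37 (0.229). Per kb, Cyp2a22 was 0.0021 ± 0.000381 of Cyp2a12 in Control, 0.00775 ± 0.00494 in HFD and 0.073 ± 0.0225 with fenofibrate. Of the 100-base stretches of the Cyp2a22 transcript, 6.36% occurred in another gene, most often Cyp2a12.

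The 16 Cyp2c genes lie from chr19:39007019-44029208, and 14 were tested. On the diet 1 rose and 3 fell, with fenofibrate 1 rose and 6 fell relative to HFD, and 2 rose and 7 fell relative to Control. Of all genes tested, 6.13% rose and 6.64% fell on the diet, 6.89% and 6.59% relative to HFD, and 4.86% and 4.31% relative to Control. A count of 1 in 14 is thus not read as a result about these genes. The falls of Cyp2c44, Cyp2c50, Cyp2c67 and Cyp2c53-ps relative to HFD were lost without fenofibrate libraries 1 and 3, as given below. Many Cyp2c enzymes turn arachidonic acid into epoxides, and several are pericentral and inducible through CAR. Cyp2c29 (ENSMUSG00000003053, chr19:39269405-39330713), the most abundant of them per kb, was at 3178, 3092, 4395 and 4215 CPM in Control, 4220.2, 3824, 4918 and 4166 in HFD, and 1556, 2022, 1682 and 2235 with fenofibrate. The diet change was 0.20 ± 0.15 (adjusted p = 0.418), and every fenofibrate library lay below all 8 others. Cyp2c29 fell 2.29-fold relative to HFD (-1.19 ± 0.15, adjusted p = 0.000574) and 1.99-fold relative to Control (-0.99 ± 0.15, adjusted p = 0.000972).

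Cyp2c37, Cyp2c50 and Cyp2c54 are neighbours with 95.1 to 96.1% identical coding sequences, and their means stepped down from Control to HFD to fenofibrate. Cyp2c37 was at 731, 722, 894 and 861 CPM in Control, 595, 493, 668 and 462 in HFD, and 433, 539, 529 and 485 with fenofibrate. It fell on the diet (-0.53 ± 0.13, adjusted p = 0.0134) and was lower with fenofibrate than in Control (-0.69 ± 0.13, adjusted p = 0.00378). The step from HFD to fenofibrate, -0.16 ± 0.13, did not pass (adjusted p = 0.418).
Cyp2c54 was at 687, 670.1, 981 and 893 CPM in Control, 527, 427, 579.9 and 422 in HFD, and 291, 539, 439 and 458 with fenofibrate. Its changes were -0.72 ± 0.18 on the diet (adjusted p = 0.015) and -0.90 ± 0.18 relative to Control (adjusted p = 0.00568), and -0.18 ± 0.18 relative to HFD (adjusted p = 0.519). Cyp2c37 and Cyp2c54 thus passed on the diet and not at the fenofibrate step. The removal of HFD library 4 ended the diet calls (adjusted p = 0.0501 for Cyp2c37, at a change of -0.45, and 0.0529 for Cyp2c54, at -0.66), as did that of HFD library 2 for Cyp2c54 (-0.66, adjusted p = 0.05). The removal of fenofibrate libraries 1 and 3 ended the calls relative to Control, at changes of -0.64 for Cyp2c37 (adjusted p = 0.059) and -0.69 for Cyp2c54 (adjusted p = 0.0741).
Cyp2c50 was at 1457, 1468, 2137 and 1876 CPM in Control, 1327, 1199, 1403 and 1134 in HFD, and 726, 1129, 879.7 and 868 with fenofibrate. It fell relative to HFD (-0.49 ± 0.15, adjusted p = 0.0424) and 1.93-fold relative to Control (-0.95 ± 0.15, adjusted p = 0.0014), and its diet change was -0.45 ± 0.15 (adjusted p = 0.0607). The call relative to HFD was lost without any 1 of the HFD libraries, Control library 4, or fenofibrate library 1, 3 or 4, with adjusted p-values of 0.0534 to 0.137. With fenofibrate libraries 1 and 3 both removed it was -0.34 (adjusted p = 0.38).

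Cyp2c55 (ENSMUSG00000025002, chr19:39007019-39042693), known for induction through CAR and PXR, fell at both steps. It was at 9.12, 8.62, 14.2 and 9.71 CPM in Control, 5.06, 6.18, 4.97 and 5.83 in HFD, and 1.24, 0.9, 1.17 and 1.23 with fenofibrate, with no overlap between any groups. It fell 1.89-fold on the diet (-0.92 ± 0.17, adjusted p = 0.00233), a further 4.81-fold with fenofibrate (-2.27 ± 0.20, adjusted p = 3.38e-05) and 9.08-fold from Control to fenofibrate (-3.18 ± 0.20, adjusted p = 4.43e-07). Across the 22 alternatives tried, the fenofibrate change stayed between -2.35 and -2.18. No 100-base stretch of its transcript occurred in another gene.

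**Figure D5:**
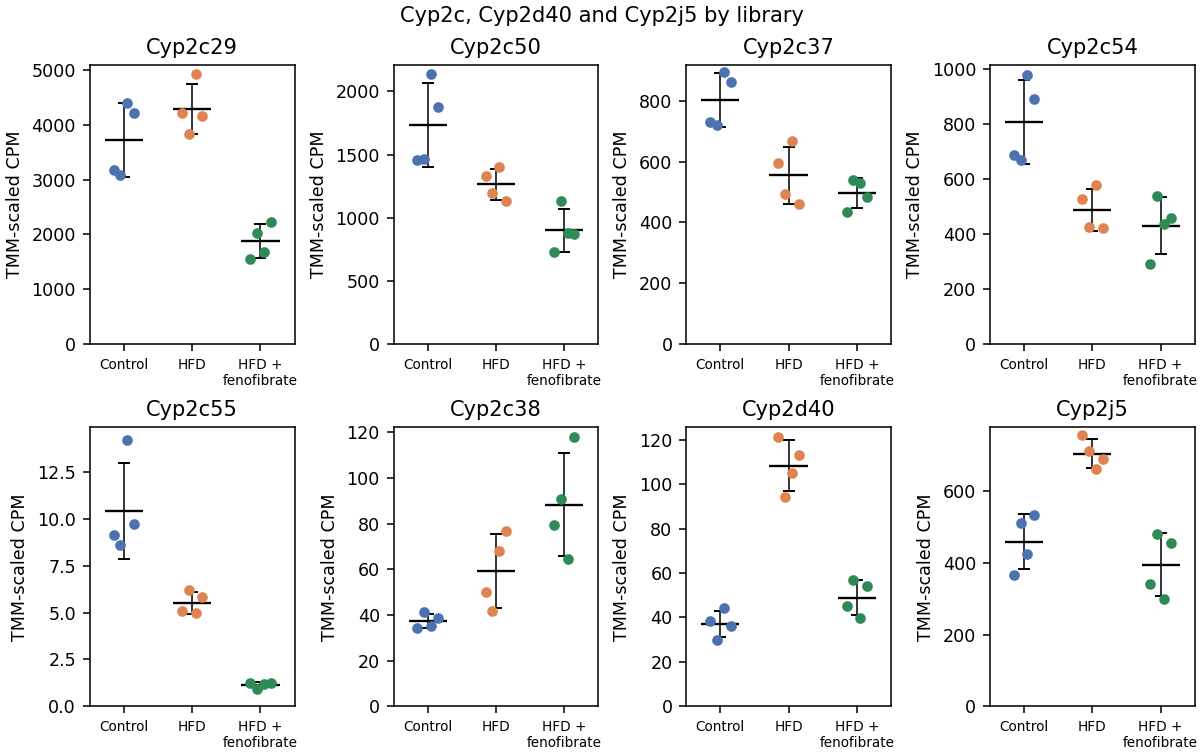
CPM in each library (y axis, from 0) for 6 Cyp2c genes, Cyp2d40 and Cyp2j5 in the 3 groups, with points for libraries, lines for means and bars for SD. Cyp2c55 steps down from Control to HFD to fenofibrate without overlap, Cyp2c38 steps up, and Cyp2d40 and Cyp2j5 are highest in HFD.

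Cyp2c38 and Cyp2c39 were the Cyp2c genes that rose. Cyp2c39 is described as a retinoic acid hydroxylase, and its coding sequence was 94.2% identical to that of Cyp2c38. Cyp2c38 was at 34.5, 41.2, 35.1 and 38.9 CPM in Control, 50.2, 41.7, 67.9 and 76.9 in HFD, and 79.3, 90.9, 64.7 and 118 with fenofibrate. It rose on the diet (0.66 ± 0.19, adjusted p = 0.0324) and was 2.36-fold higher with fenofibrate than in Control (1.24 ± 0.19, adjusted p = 0.00106), and its change relative to HFD was 0.58 ± 0.19 (adjusted p = 0.0526). The diet call did not survive the removal of Control library 1, 3 or 4 or HFD library 3 or 4 (adjusted p from 0.0565 to 0.114). Cyp2c39, with group means of 2.95, 2.68 and 4.85 CPM, rose 1.81-fold relative to HFD (0.86 ± 0.22, adjusted p = 0.0211) and 1.65-fold relative to Control (0.72 ± 0.22, adjusted p = 0.0496). The last call was lost in 12 of 22 alternatives (adjusted p up to 0.137), among them the removal of any 1 Control or fenofibrate library or of HFD library 1. The call relative to HFD was lost in 4 (up to 0.121), without HFD library 2, fenofibrate library 3 or 4, or fenofibrate libraries 1 and 3.

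Cyp2c44, an epoxygenase, and Cyp2c67 passed only with fenofibrate. Cyp2c44 was at 386, 474, 439 and 369.7 CPM in Control, 341, 363, 384 and 334 in HFD, and 222, 262, 222 and 245 with fenofibrate, below all 8 other libraries. It fell 1.49-fold relative to HFD (-0.58 ± 0.10, adjusted p = 0.00358) and 1.76-fold relative to Control (-0.81 ± 0.10, adjusted p = 0.000328), and the diet change was -0.23 ± 0.10 (adjusted p = 0.16). The call relative to HFD needed fenofibrate libraries 1 and 3 (without both, -0.48, adjusted p = 0.105).
Cyp2c67 was at 186, 286, 239 and 234 CPM in Control, 226, 216, 212 and 212 in HFD, and 162, 185, 123 and 160.3 with fenofibrate. It fell relative to HFD (-0.46 ± 0.13, adjusted p = 0.0347) and to Control (-0.59 ± 0.13, adjusted p = 0.0128). The call relative to HFD was lost without any 1 HFD library or fenofibrate library 1, 3 or 4 (0.0527 to 0.109, adjusted p), and both calls after removal of fenofibrate libraries 1 and 3 (-0.32, adjusted p = 0.315, and -0.44, adjusted p = 0.156). Of the 100-base stretches of its transcript, 23.7% occurred in another gene, so its value is uncertain.

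The other tested Cyp2c genes did not pass on the diet. Cyp2c53-ps, a pseudogene at group means of 1.43, 2.61 and 0.362 CPM, fell 7.29-fold with fenofibrate relative to HFD (-2.87 ± 0.61, adjusted p = 0.00871), from 167 reads to 27, and lost that call without fenofibrate libraries 1 and 3 (-1.93, adjusted p = 0.129). Cyp2c70, which makes the muricholic acids of mouse bile, had group means of 487, 368 and 307 CPM and reached an adjusted p of 0.0569 relative to Control (-0.67 ± 0.21). Cyp2c40, Cyp2c68 and Cyp2c69, which are near-identical to one another and to Cyp2c67, passed nowhere. Another gene held 44.1% of the 100-base stretches of the Cyp2c40 transcript, 36.3% of those of Cyp2c69 and 19.8% of those of Cyp2c68, so their single values are uncertain. Cyp2c65 and Cyp2c66 had at most 3 reads per group and were not tested.

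The Cyp2d genes, homologues of the human drug-metabolising CYP2D6, lie from chr15:82370528-82794245, and the 3 abundant ones did not pass. Cyp2d9, a male-biased steroid hydroxylase, was at 1801, 1317, 1901 and 1285 CPM in Control, 1572, 1615, 1637 and 1289 in HFD, and 1764, 1775, 2078 and 1314 with fenofibrate. Its changes were -0.04 ± 0.16 on the diet (adjusted p = 0.894) and 0.18 ± 0.16 with fenofibrate (adjusted p = 0.461), and the groups overlapped. Cyp2d10 and Cyp2d26 passed in no comparison, with group means of 859.9, 797 and 782 CPM and of 1028, 1080 and 1006 CPM. Cyp2d26 varied least between Control libraries of the tested members, with a coefficient of variation of 3.47%.

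Cyp2d40 (ENSMUSG00000068083, chr15:82759835-82764183) was the tested Cyp2d gene with the largest response, up on the diet and down with fenofibrate. It was at 38.3, 29.8, 44.3 and 36.1 CPM in Control, 121, 94.2, 105 and 113 in HFD, and 45.2, 56.7, 39.9 and 54 with fenofibrate. HFD stood clear of both other groups. It rose 2.91-fold on the diet (1.54 ± 0.14, adjusted p = 6.07e-06) and fell 2.21-fold with fenofibrate (-1.14 ± 0.13, adjusted p = 0.000292), and its distance from Control, 0.40 ± 0.13, did not pass (adjusted p = 0.0793). Cyp2d37-ps, nearby, has the symbol of a pseudogene but is given as protein-coding in the deposited annotation. It was at 36.7, 24.6, 37.9 and 35 CPM in Control, 68.2, 63, 55.8 and 58.8 in HFD, and 58.4, 62.9, 71 and 64.1 with fenofibrate. It rose on the diet (0.87 ± 0.12, adjusted p = 0.00041) and stayed above Control with fenofibrate (0.93 ± 0.12, adjusted p = 0.000464), with 0.06 ± 0.12 between HFD and fenofibrate (adjusted p = 0.769). Both calls of each gene held in all 22 alternatives.

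Cyp2d22 moved in the direction opposite to Cyp2d40. It was at 379.6, 294, 368 and 303 CPM in Control, 254, 278, 266 and 241 in HFD, and 337, 358, 357 and 366 with fenofibrate. It fell 1.29-fold on the diet (-0.37 ± 0.10, adjusted p = 0.0253) and rose 1.36-fold with fenofibrate (0.45 ± 0.10, adjusted p = 0.0117). The diet call was lost in 8 alternatives, among them the removal of Control library 1 or 3 or HFD library 1, 3 or 4 (adjusted p from 0.0544 to 0.0847), and the fenofibrate call without fenofibrate libraries 1 and 3 (0.48, adjusted p = 0.109). Cyp2d11 and Cyp2d41-ps, at group means of 0.758 to 1.12 and 1.29 to 2.91 CPM, passed nowhere, and Cyp2d12 and Cyp2d34 were not tested.

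Cyp2e1 (ENSMUSG00000025479) was at 9227, 8575, 7987 and 8939 CPM in Control, 8215, 8842, 8579 and 8218 in HFD, and 11341, 11083, 9887 and 10935 with fenofibrate. All 4 fenofibrate libraries were above the other 8. The rise relative to HFD was 1.28-fold (0.35 ± 0.10, adjusted p = 0.0336), and the changes of -0.04 ± 0.10 on the diet (adjusted p = 0.86) and 0.32 ± 0.10 from Control to fenofibrate (adjusted p = 0.0655) did not pass. The call was lost without any 1 HFD library or fenofibrate library 1 or 4 (0.0507 to 0.0886, adjusted p), without the filter on low counts (0.192), and without fenofibrate libraries 1 and 3 (0.38, adjusted p = 0.143). With the replicate number as a block the adjusted p was 0.0526. Cyp2e1 stands alone at chr7:140763739-140774987, outside the cluster of Cyp2a and Cyp2b genes.

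The Cyp2j genes on chromosome 4 encode epoxygenases of arachidonic acid, and Cyp2j5 (ENSMUSG00000052520, chr4:96628773-96664154) had the highest level per kb of them here. It was at 367, 513, 426 and 534 CPM in Control, 756, 712, 662 and 691 in HFD, and 342, 482, 301 and 457 with fenofibrate. As with Cyp2d40, the 4 HFD libraries were above all others. Cyp2j5 rose 1.53-fold on the diet (0.62 ± 0.15, adjusted p = 0.015) and fell 1.78-fold with fenofibrate (-0.84 ± 0.15, adjusted p = 0.00394), with -0.22 ± 0.15 relative to Control (adjusted p = 0.402). Cyp2j6 was at 62.8, 87.2, 87.6 and 82.4 CPM in Control, 104, 98.4, 73.8 and 89.2 in HFD, and 43.5, 68.9, 32.8 and 62.8 with fenofibrate. It fell 1.76-fold relative to HFD (-0.81 ± 0.19, adjusted p = 0.0152), with no overlap. Without fenofibrate libraries 1 and 3 the calls of Cyp2j5 (-0.58, adjusted p = 0.0903) and Cyp2j6 (-0.47, adjusted p = 0.193) were lost, and without fenofibrate library 1 alone the adjusted p of Cyp2j6 was 0.0501.
Cyp2j9 was at 26.3, 30.2, 24.1 and 24.9 CPM in Control, 22.1, 17, 18.3 and 20.5 in HFD, and 23.7, 17.3, 19.7 and 13.7 with fenofibrate. It was lower with fenofibrate than in Control (-0.50 ± 0.14, adjusted p = 0.0408), while -0.44 ± 0.15 on the diet did not pass (adjusted p = 0.0624). The call did not survive the removal of Control library 1, 2 or 4, HFD library 4, or fenofibrate library 2, 3 or 4 (0.0531 to 0.124, adjusted p). Cyp2j8 and Cyp2j13 had at most 22 and 2 reads per group and were not tested.

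Among the other subfamilies with 1 gene, Cyp2f2 and Cyp2u1 passed. Cyp2f2, a periportal enzyme that activates naphthalene, was at 1016, 849, 1149.8 and 872 CPM in Control, 634, 619.7, 769 and 573 in HFD, and 454, 549, 493 and 559 with fenofibrate, with no overlap between any groups. It fell 1.5-fold on the diet (-0.58 ± 0.12, adjusted p = 0.00655) and 1.89-fold from Control to fenofibrate (-0.92 ± 0.13, adjusted p = 0.000516), and -0.34 ± 0.12 between HFD and fenofibrate did not pass (adjusted p = 0.0805). Cyp2u1, a fatty acid hydroxylase on chromosome 3, was at 21.9, 9.6, 17.2 and 14.9 CPM in Control, 36.9, 24.4, 37.8 and 21.6 in HFD, and 27.7, 29.2, 25.8 and 18.9 with fenofibrate. It rose 1.89-fold on the diet (0.92 ± 0.23, adjusted p = 0.0158), although HFD library 4 and Control library 1 overlapped.

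The remaining single genes passed in no comparison or were not tested. Cyp2r1, a vitamin D hydroxylase, was at 12.2, 16, 11.9 and 16.2 CPM in Control, 15.5, 14.6, 10 and 17.5 in HFD, and 9.14, 12.1, 7.49 and 12.2 with fenofibrate, and its largest change was -0.49 ± 0.19 relative to HFD (adjusted p = 0.0868). Cyp2g1, best known from olfactory tissue, was at 1.23, 1.62, 3.61 and 1.68 CPM in Control, 1.28, 1, 2.39 and 1.24 in HFD, and 1.88, 3.42, 1.85 and 3.3 with fenofibrate, with adjusted p-values of 0.14 to 0.566. Cyp2s1 and Cyp2t4 were not tested. Cyp2s1 had 37, 10 and 34 reads in Control, HFD and fenofibrate, and Cyp2t4 had 13, 12 and 25. Of the 11 members that were not tested, none had more than 33 reads in any library, and no statement about their direction is made.

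Sorted by what the genes are known for, using lists of Cyp2 genes drawn up with earlier results of these data known, the counts can be read against the shares of all genes tested, which were 6.13% rising and 6.64% falling on the diet, 6.89% and 6.59% with fenofibrate relative to HFD, and 4.86% and 4.31% relative to Control. Of 6 Cyp2 genes inducible through CAR, 4 fell on the diet (Cyp2b10, Cyp2c37, Cyp2c54 and Cyp2c55), 3 fell with fenofibrate relative to HFD (Cyp2c29, Cyp2c50 and Cyp2c55) and all 6 were lower with fenofibrate than in Control, with median log2 changes of -0.63, -0.34 and -0.97. None of them rose, and those that did not pass included Cyp2c29 on the diet (0.20) and Cyp2b10 with fenofibrate relative to HFD (0.63). Without fenofibrate libraries 1 and 3, Cyp2b10, Cyp2c37 and Cyp2c54 lost the call relative to Control, and Cyp2c50 lost that relative to HFD. Of 6 pericentral genes, 3 fell on the diet, and with fenofibrate Cyp2e1 rose while Cyp2c29 and Cyp2c50 fell, so genes placed in the same zone moved in opposite directions. The calls of Cyp2e1 and Cyp2c50 relative to HFD were lost without fenofibrate libraries 1 and 3. Of 5 tested female-biased genes, Cyp2b9 rose on the diet, Cyp2a4, Cyp2b9 and Cyp2c39 rose with fenofibrate relative to HFD and none fell. Each of these calls relative to HFD was lost without fenofibrate libraries 1 and 3. Cyp2a4 and Cyp2b9 were tested only through the groups where they were high, so their rises are not read as a result about the list. Apart from Cyp2b9, the other 4 had diet changes below 0 that did not pass (Cyp2a4 -1.19, Cyp2c39 -0.14, Cyp2c40 -0.72 and Cyp2c69 -0.84), and the median of the 5 was -0.72 on the diet and 0.86 with fenofibrate. The 2 male-biased genes gave 1 rise, Cyp2u1 on the diet. Of 9 genes for epoxygenases of arachidonic acid, 2 rose and 1 fell on the diet, and 1 rose and 5 fell with fenofibrate relative to HFD. Without fenofibrate libraries 1 and 3, the calls of Cyp2j5, Cyp2j6, Cyp2c39, Cyp2c44 and Cyp2c50 relative to HFD were lost. Cyp2c29, Cyp2c37, Cyp2c50 and Cyp2c54 are in both the CAR-inducible and the pericentral list. All of these but Cyp2c37 are also among the epoxygenases, as is the female-biased Cyp2c39, so the counts of these lists are not separate results.

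Other genes around the Cyp2 enzymes were read in the same fit, and their values without fenofibrate libraries 1 and 3 were not examined. Por, the reductase that feeds electrons to all microsomal P450 enzymes, was at 930.4 ± 206 CPM in Control, 295 ± 40.4 in HFD and 610.3 ± 123 with fenofibrate. It fell on the diet (-1.66 ± 0.17, adjusted p = 2.4e-05) and rose with fenofibrate (1.05 ± 0.17, adjusted p = 0.00217). Of the 14 genes of electron supply and haem synthesis, 3 rose and 1 fell on the diet, and 1 rose and 2 fell with fenofibrate relative to HFD, the latter 2 being the genes of cytochrome b5 proteins Cyb5a (-0.52 ± 0.13, adjusted p = 0.0214) and Cyb5b (-0.50 ± 0.13, adjusted p = 0.0187). Of all genes tested, 6.13% rose and 6.64% fell on the diet, and 6.89% rose and 6.59% fell with fenofibrate relative to HFD. A count of 1 in 14 is thus not read as a result about the list.

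Of 20 tested CAR and PXR targets outside the family, 13 fell and none rose on the diet, where 6.64% of all genes fell, and 2 rose and 2 fell with fenofibrate relative to HFD, where 6.89% and 6.59% of all genes did, so the latter counts are not read as a result about the list. Ugt1a9, a glucuronosyltransferase, fell from 43.7 ± 4.47 to 6.62 ± 1.97 CPM on the diet (-2.73 ± 0.19, adjusted p = 6.22e-07). The receptor gene of CAR, Nr1i3, went the other way and rose from 20.2 ± 1.63 to 25.9 ± 2.22 CPM (0.36 ± 0.11, adjusted p = 0.0446), while Nr1i2, which encodes PXR, did not pass (0.07 ± 0.09, adjusted p = 0.685). Both receptor genes are named for what they encode, after their values were seen. Of 25 regulators of P450 genes, 5 rose and 3 fell on the diet, where 6.13% and 6.64% of all genes did. With fenofibrate relative to HFD, 3 rose and 1 fell, where 6.89% and 6.59% did, so the 1 fall is not read as a result. Cux2, a transcription factor known for female-biased levels in liver, fell on the diet from 16.3 ± 5.35 to 0.401 ± 0.198 CPM (-5.31 ± 0.47, adjusted p = 6.07e-06) and rose to 12.5 ± 5.87 CPM with fenofibrate (4.93 ± 0.47, adjusted p = 4.87e-05), while the female-biased Cyp2b9 rose at both steps. Bcl6, a repressor known for male-biased levels in liver, was at 10.3 ± 3.06, 22.4 ± 12.4 and 35.7 ± 13 CPM and was higher with fenofibrate than in Control (1.78 ± 0.36, adjusted p = 0.00637). Of 26 tested P450 genes of other families, 12 fell and none rose on the diet, where 6.64% and 6.13% of all genes did. With fenofibrate relative to HFD, 5 rose and 2 fell, where 6.89% and 6.59% did, and the 2 falls are not read as a result. This list and that of CAR and PXR targets share Cyp3a genes that fell on the diet, so their counts are not separate results.

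In the authors' deposited table of the diet comparison, 7 Cyp2 genes were higher and 9 lower in HFD at an adjusted p under 0.05. In the authors' deposited table of fenofibrate against HFD, 7 were higher and 11 lower. The authors' own significance flag in the deposited tables marked 3 higher and 2 lower on the diet, and 3 higher and 4 lower with fenofibrate. The shares of all genes called by the authors were not computed here, so these counts are not read as a result about the family. They come from the same libraries as the counts above and are not separate support for them.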

How the data were processed

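Liver RNA was sequenced in 12 libraries, 4 for each of 3 groups. The submitters' processing notes name the tools HTSeq 0.6.0, HISAT2 2.0.5 and StringTie 1.3.2d, with no order. For the alignment, a genome build and a strand setting of the counting were not stated in the sources used here. The authors deposited 2 tables with raw read counts per gene, which were joined on the gene identifier, and a gene absent from one table was taken as 0 counts there (22657 of 25164 genes were in both). The HFD counts, present in both tables, were identical. The same deposited tables hold the authors' log2 fold changes and p-values, and also scaled mean counts (a signal value) and linear fold ratios, which were not used for any result.

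The counts were fitted with edgeR 4.0.16 in R 4.3.3: TMM scaling (factors 0.884 to 1.16), filterByExpr, 1 coefficient per group over all 12 libraries and the quasi-likelihood test, with Benjamini-Hochberg adjustment over 13477 genes. The prior count for fold changes was 0.125, and ± beside a log2 change is its SE. The common biological coefficient of variation was 0.155. The fit was tested on simulated counts. Libraries of a group differed by more than sampling noise in each of 18 pairs (chi-square per gene 15.2 to 42.7). DESeq2 1.42.0, limma 3.58.1, other scalings and filters, a replicate block and left-out libraries were tried as alternatives.

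Upstream sequences came from the RefSeq table of GRCm38.p6, in which 35 of the 47 genes matched, and were read over the 250 bases before the start. Motifs were searched on both strands in those windows: AGGTCA, the D-box letters TTATGTAA and TTACGTAA, and TTCNNNGAA. 1 regulator of the fixed lists is not reported here by name. Windows were aligned with Biopython 1.88. Shared 100-base stretches and coding identities were computed from GENCODE M21 transcripts. Proteins were not used here.

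Earlier results of these data were known when the members and all gene lists were chosen, though the members were taken by symbol alone. Named with the value in every library were the Cyp2 genes that passed in any comparison and reached a mean of 10 CPM in a group, and the most abundant gene of each subfamily, 27 genes in all. For this choice alone, abundance was the mean CPM over the 12 libraries without division by exon length. From the other lists, up to 4 passing genes with the largest changes per comparison could be named. The values of Cyp2a4, Cyp2b13, Cyp2c39 and Cyp2c53-ps are given beyond that rule.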

Additional observations from a re-analysis of the deposited data

Results flagged for a closer look

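Of 84 sets of 4 libraries examined for a single library far from the others (Dixon's test at its 95% critical value), 2 stood out, where chance alone flags about 1 in 20. Both concern Cyp2b9. In Control, library 4 was at 0.498 CPM (8 of the 13 Control reads) and the other 3 were between 0.0648 and 0.124. In HFD, library 3 was at 36.8 CPM and the other 3 were between 2.43 and 7.89, and the same library held 33 of the 36 HFD reads of Cyp2b13.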

How the results depend on the processing

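The counts of Cyp2 genes that rose and fell on the diet, rose and fell with fenofibrate relative to HFD, and rose and fell relative to Control were 7, 7, 6, 10, 5 and 11. Over all 13477 genes tested, the same 6 counts were 826, 895, 928, 888, 655 and 581. Leaving out 1 library at a time gave 6 to 7, 4 to 9, 4 to 7, 6 to 10, 4 to 6 and 9 to 13 Cyp2 genes. Over all genes it gave 550 to 832, 554 to 930, 282 to 1210, 328 to 1206, 383 to 858 and 310 to 852. The Cyp2 counts are thus not read apart from the total number of calls. Leaving out fenofibrate libraries 1 and 3 together gave 1 risen and 3 fallen relative to HFD and 6 fallen relative to Control, and this setting has fewer libraries. DESeq2 gave 7, 9, 7, 11, 7 and 13, limma-voom 6, 7, 6, 10, 6 and 13, and no low-count filter 8, 6, 6, 10, 5 and 15. Over all genes, DESeq2 gave 998, 1008, 1147, 1186, 831 and 738, and limma-voom 819, 845, 877, 903, 640 and 572. With no low-count filter the counts over all 25164 genes were 746, 768, 915, 891, 734 and 638. RLE and upper-quartile scaling kept all 6 counts. Over the named genes, 1525 of 1647 alternative values kept direction and side of the threshold, 73 lost the call, 37 gained one and 12 changed sign, none of them a called value.

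The sign changes were in Cyp2d9 on the diet (-0.13 to 0.06 over the removal of single libraries, above 0 without Control library 1 or 3 or HFD library 4) and relative to Control (-0.02 without fenofibrate libraries 1 and 3). Others were in Cyp2r1 on the diet (-0.08 to 0.18, below 0 without Control library 1 or 3 or HFD library 1 or 4), Cyp2e1 on the diet (-0.08 to 0.01, above 0 without Control library 1) and Cyp2j9 relative to HFD (-0.20 to 0.06, above 0 without fenofibrate library 4). Without fenofibrate libraries 1 and 3, Cyp2c54 was at 0.03 relative to HFD and Cyp2j5 at 0.04 relative to Control. The cause was not tested.

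Same-numbered libraries did not deviate together (r from -0.175 to 0.139, mean 0.00292), so the numbers were not taken as pairs. With a replicate block the 6 counts were 7, 7, 6, 11, 6 and 14, and over all genes 746, 765, 805, 869, 570 and 534. Library totals limit the 11 members that were not tested, which had at most 33 reads in a library.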

Other observations

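Values that belong to no comparison above concern the chromosomal clusters. Of 8 tested genes in the chromosome 7 cluster, 2 rose and 3 fell on the diet and 3 rose and 1 fell with fenofibrate relative to HFD, so neighbours moved in both directions. Of 8 tested Cyp2d genes on chromosome 15, 2 rose and 1 fell on the diet and 1 rose and 1 fell with fenofibrate relative to HFD. Of all genes tested, 6.13% rose and 6.64% fell on the diet and 6.89% and 6.59% with fenofibrate, so a count of 1 in 8 is not read as a result about the cluster. The D-box letters TTATGTAA and TTACGTAA occurred in 0.819% and 0.113% of all windows of 250 bases before RefSeq starts and TTCNNNGAA in 7.02%, and each in 0 of 37 windows of Cyp2 genes, which says only that these letters are not in these windows. Within groups, Cyp2b9 varied most in HFD (coefficient of variation 116%) and Cyp2c67 least (3%).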
